A study of Mus musculus with 6 samples.

Results

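Transducin is the G protein that carries the light signal from an opsin to the phosphodiesterase of the photoreceptor outer segment. Rods and cones each build it from their own alpha, beta and gamma genes, and the 6 genes described here are the rod subunits Gnat1, Gnb1 and Gngt1 and the cone subunits Gnat2, Gnb3 and Gngt2. They were taken by name from the 49997 genes counted, and all 6 were found and passed the filter on low counts. Light-activated opsin makes the alpha subunit exchange GDP for GTP, after which alpha leaves the beta-gamma pair and relieves the inhibition of the phosphodiesterase. The gamma subunits are farnesylated, which holds the beta-gamma pair to the membrane. Nr2e3, the gene targeted in the study, encodes a nuclear receptor of rods that is known to hold down cone genes.

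RNA came from photoreceptors of mice of genotype Rosa26-Cas9, whose cells all express SpCas9. Each animal received, under the retina, an adeno-associated virus with a 7m8 coat that carried either an anti Nr2e3 guide RNA or a non-targeting control guide RNA, and a human GRK1 promoter confined its mCherry reporter to photoreceptors. Injection was at postnatal day 21 by the series text and at 4 weeks by the treatment protocol. After 6 months, about 100000 cells with mCherry were collected by sorting from the 2 retinas of each animal. There were 3 libraries with the Nr2e3 guide (guide libraries) and 3 with the control guide (control libraries). Guide replicate 1 and all 3 control animals were male, and guide replicates 2 and 3 were female. Both groups carried Cas9, virus and reporter.

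Gene counts summed to 24705561 to 33098812 in guide and 32626751 to 34286248 in control libraries. Nr2e3 itself was at 2033 ± 265 counts per 1000000 gene counts (CPM, SD, n = 3) with the Nr2e3 guide and 1649 ± 43.7 CPM without it (log2 fold change 0.37, SE 0.13, edgeR adjusted p = 0.716), and counts over a whole gene do not read the edits a guide makes. The 8 rod markers summed to 116102 to 138697 CPM over the 6 libraries. The 7 cone markers summed to 4083 to 6576 CPM in guide libraries, to 5404 and 6225 CPM in control replicates 1 and 2, and to 1245 CPM in control replicate 3. Among them, Opn1sw, Opn1mw, Arr3, Cnga3 and Cngb3 summed to 2994, 1833 and 1731 CPM in guide replicates 1, 2 and 3 and to 4352, 5248 and 1070 CPM in control replicates 1, 2 and 3. The other 2, Pde6c and Pde6h, summed to 3582, 3761 and 2352 CPM in guide and to 1052, 977 and 175 CPM in control replicates 1, 2 and 3, so these 2 parts of the list lay in opposite order between the guide libraries and control replicates 1 and 2. In control replicate 3, 7 of 7 cone markers lay below both other controls and 17 of 17 microglia and monocyte markers above both, with sums of 413 CPM against 43.9 and 51.6 CPM. Over all 6 libraries, marker sums were 157 to 380 CPM for Müller glia, 57.1 to 343 CPM for amacrine cells and 0.890 to 14.6 CPM for pigment epithelium. Values of the subunits that moved most without control replicate 3 are given with and without it.

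In the quasi-likelihood test of edgeR, with p-values adjusted by Benjamini-Hochberg, 0 of the 6 subunits passed the threshold of 0.05, where 0.344% of the 17138 genes tested passed, and 1, Gnat2, had an unadjusted p under 0.05 (5.69% of all genes). DESeq2 called 1 of 6 (1.59% of genes) and limma-voom 1 of 6 (1.04%), Gnat2 in both, as did edgeR with no count filter (0.48%). Without control replicate 3, edgeR called Gnat2 and Gnb3, 2 of 6, where 0.5% of genes passed. In plain CPM, all guide libraries lay above all controls for 2 of the 6, Gnat2 and Gnb1 (4.63% of genes), and below them for 0 of the 6 (7.55%), where 12.2% of genes did not overlap either way. The median log2 fold change was 0.25 over the 6 subunits and -0.01 over all genes tested.

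The cone alpha subunit Gnat2 (GRCm38 chromosome 3, 108086788 to 108101432) was the member that stood furthest apart between groups. It was at 8147, 6636 and 7468 CPM in guide replicates 1, 2 and 3, and at 1086, 1027 and 201 CPM in control replicates 1, 2 and 3. All guide libraries lay above all controls, and control replicate 3 lay well below the other controls. Gnat2 was the 11th to 15th most counted gene of each guide library, while it stood between places 76 and 636 in the controls. The log2 fold change of guide over control was 3.30 (SE 0.61, edgeR adjusted p = 0.121, n = 3 each), a 9.87-fold difference. The adjusted p was 4.82e-08 by DESeq2 and 0.00507 by limma-voom, and without control replicate 3 edgeR gave 2.83 (SE 0.14, adjusted p = 0.000797). Leaving out any 1 other library gave an edgeR adjusted p of 0.255 to 0.412. With sex as a term edgeR gave 3.45 (SE 0.79, adjusted p = 0.430). The male guide library, at 8147 CPM, was above the 3 male controls, which by itself gives no replicate check. In such sorted pools, more cells that express a gene and more RNA per cell cannot be told apart.

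The RefSeq promoter of Gnat2 (GRCm38.p6, chr3:108092816-108093115, plus strand) is shown because this gene carried the difference between groups. It spans 250 bases before and 50 bases after a start of transcription that lies inside the span of the gene given above, as does that of Gngt1, so other starts are not covered. Capitals mark matches to any of 4 motifs searched on both strands: TAATCC and TAAGCC, cores bound by the photoreceptor factor CRX, AAGTCA, a half-site of NR2E3, and TGCTGA, a half-site of NRL.

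Gnat2: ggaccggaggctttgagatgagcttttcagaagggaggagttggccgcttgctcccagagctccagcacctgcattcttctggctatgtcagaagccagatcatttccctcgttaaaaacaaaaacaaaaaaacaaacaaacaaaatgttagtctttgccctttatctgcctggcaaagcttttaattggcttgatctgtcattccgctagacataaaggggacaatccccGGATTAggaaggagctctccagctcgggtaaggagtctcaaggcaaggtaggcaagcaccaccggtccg

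The window held 1 match, GGATTA, which is TAATCC read on the minus strand and starts 19 bases before the start of transcription. TAATCC was present in 7.06% of the 32544 RefSeq promoters of this length. AAGTCA (15.2% of promoters) and TGCTGA (19.5%) had no match in this window or in those of Gnb1 and Gngt1, and TAAGCC (9.50%) had none in Gnat2. Promoters were matched for Gnat2, Gnb1 and Gngt1, 3 of the 6 genes. Such matches describe the letters and do not show binding.

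The rod alpha subunit Gnat1 (chromosome 9, 107674437 to 107679634) did not pass the test, and its groups overlapped. It was at 29311, 29072 and 35028 CPM with the Nr2e3 guide and at 33645, 33933 and 37570 CPM in control replicates 1, 2 and 3. The highest guide library lay above the 2 lower controls, and replicate 3 was the highest library of each group. Gnat1 had a log2 fold change of -0.10 in guide over control (SE 0.13, edgeR adjusted p = 0.995).

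**Figure D1:**
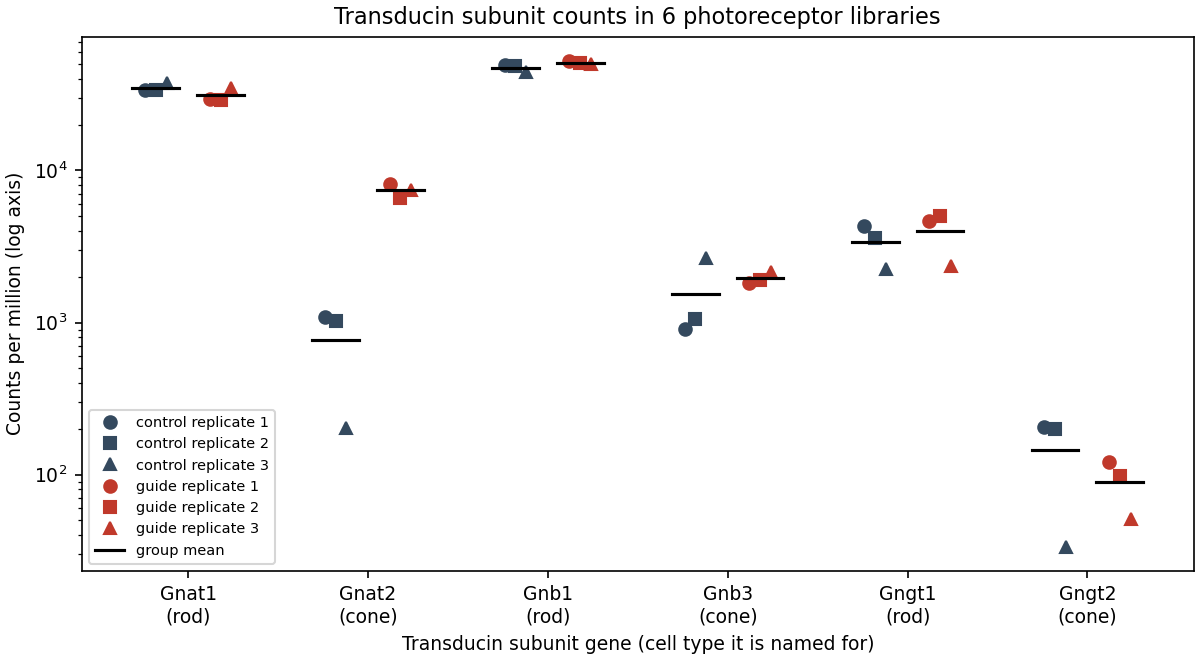
CPM (log axis) of the 6 transducin subunit genes in each of 3 control and 3 guide libraries, with 1 marker shape per replicate number and a bar at the group mean. Gnat2 lies at 6636 CPM or more in the guide libraries and at 1086 CPM or less in the controls. Control replicate 3 is the lowest library for Gnat2, Gnb1, Gngt1 and Gngt2 and the highest for Gnat1 and Gnb3, so it is an extreme library for every subunit.

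Set against its rod paralog within each library, Gnat2 took a far larger part of alpha transcripts in the guide libraries. Per kilobase of transcript, Gnat2 stood at 31.5, 25.9 and 24.2% of Gnat1 in guide replicates 1, 2 and 3. In control replicates 1, 2 and 3 it stood at 3.66, 3.43 and 0.607%. The groups did not overlap, and the mean log2 ratio was -2.07 ± 0.20 in guide and -5.85 ± 1.47 in control libraries on the scale of raw counts (SD, n = 3), a difference of 3.78 or 13.7-fold. The exact two-sided permutation test gave p = 0.1 (adjusted p = 0.3 over 15 ratios), the smallest that 3 libraries against 3 allow. Without control replicate 3 the difference was 2.93.

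The longest runs of bases that a cone gene shares with its rod paralog are printed because reads from identical stretches cannot be assigned to 1 of the pair. Coding sequences of Gnat2 and Gnat1 were identical at 73.3% of aligned bases, those of Gnb3 and Gnb1 at 76.0%, and those of Gngt2 and Gngt1 at 64.8%. The longest identical runs between the transcripts were 23, 20 and 13 bases.

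Gnat2 and Gnat1: tacgacatggtgctggtggagga
Gnb3 and Gnb1: tcctgggacagcttcctcaa
Gngt2 and Gngt1: aagaaggaagtga

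The read length is not given in the sources used here. Exons of Gngt2 overlap those of Abi3 on the opposite strand over 234 bases, or 12.5% of its exon bases, and the other 5 genes share no exon bases with another gene in GENCODE M21. Abi3 had 81 to 108 counts in guide and 221 to 266 counts in control libraries, against 1154 to 6726 counts for Gngt2.

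The cone beta subunit Gnb3 (chromosome 6, 124834240 to 124840275) differed from Gnat2 in its pattern over the controls. It was at 1831, 1895 and 2136 CPM in guide replicates 1, 2 and 3 and at 901, 1060 and 2675 CPM in control replicates 1, 2 and 3. The guide libraries lay close together, above control replicates 1 and 2 and below control replicate 3, so the groups overlapped. The log2 fold change was 0.44 (SE 0.35, edgeR adjusted p = 0.995). Without control replicate 3, Gnb3 was higher in guide libraries, by 1.02 on the log2 scale (SE 0.12, edgeR adjusted p = 0.0215). With both replicate-3 libraries left out the edgeR adjusted p was 0.0386 (0.43% of genes called). Leaving out any single library other than control replicate 3 gave a log2 fold change of 0.20 to 0.48, which did not pass.

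Bipolar cells of the retina also express Gnb3. The 14 bipolar markers, all of which had counts, summed to 233 to 343 CPM in guide libraries, to 404 and 390 CPM in control replicates 1 and 2, and to 229 CPM in control replicate 3, where Gnb3 was highest. In that library 11 of the 14 lay below both other controls and 2 above both. No part of these cells in the level of Gnb3 was tested beyond these sums. Gng13, the gamma subunit of ON bipolar cells, was at 5.02 to 9.35 CPM in guide libraries and at 14.3, 14.5 and 5.45 CPM in control replicates 1, 2 and 3.

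The rod beta subunit Gnb1 (chromosome 4, 155491300 to 155559269), which many cell types also use, varied least of the 6 within each group, with an SD of 2.30% of the mean in guide and 5.62% in control libraries. It was at 52458, 50797 and 50191 CPM with the Nr2e3 guide and at 49192, 48585 and 44306 CPM in control libraries. All guide libraries lay above all controls, which held for 4.63% of genes tested, but the groups overlapped once CPM were scaled by TMM factors. Against a sum of rod marker counts, Gnb1 stood at 42.2, 43.5 and 43.2% in guide and 35.9, 35.9 and 38.8% in control libraries. Those groups did not overlap (difference in log2 ratio 0.22, exact permutation p = 0.1, adjusted p = 0.3). For Gnb1 the log2 fold change was 0.18 (SE 0.15, edgeR adjusted p = 0.995).

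Per kilobase, Gnb3 stood at 5.94, 6.35 and 7.25% of Gnb1 in guide and at 3.12, 3.71 and 10.3% in control replicates 1, 2 and 3. Control replicate 3 alone exceeded the guide libraries. The log2 ratio differed by 0.40 (exact permutation p = 0.5, adjusted p = 0.682), and by 0.93 without control replicate 3.

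**Figure D2:**
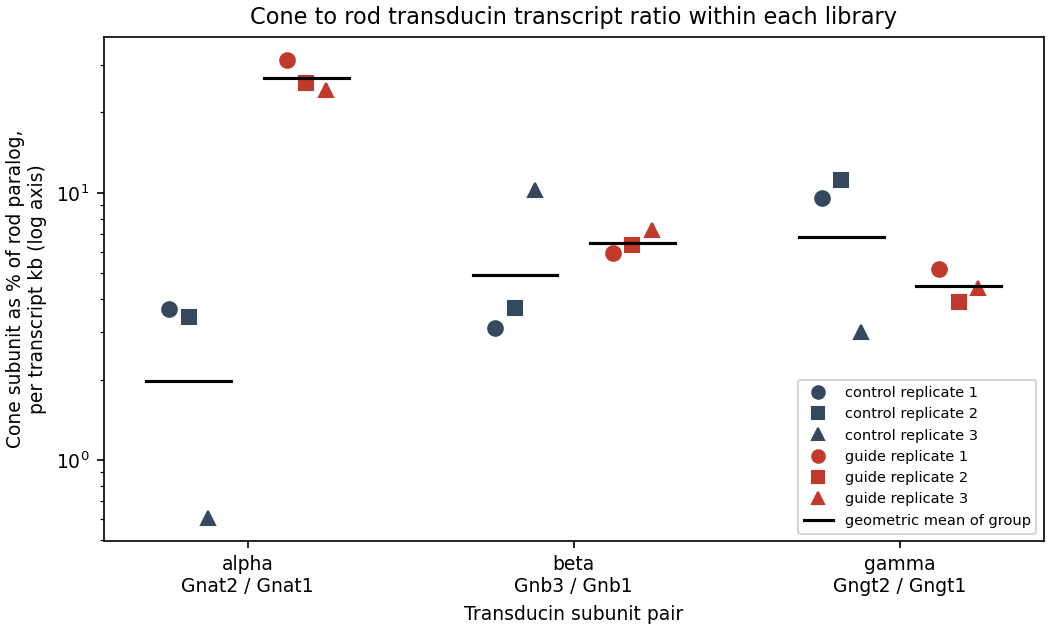
Cone subunit as a percentage of its rod paralog per kilobase of transcript (log axis), for the alpha, beta and gamma pairs in each library, with a bar at the geometric mean of each group. The guide libraries lie at 24.2 to 31.5% for alpha, all above the controls, whereas control replicate 3 lies above the guide libraries for beta and below them for gamma.

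The cone gamma subunit Gngt2 (chromosome 11, 95841772 to 95845734) was the least abundant member, with a negative log2 fold change that did not pass the test. It was at 120, 97.4 and 51.3 CPM with the Nr2e3 guide and at 206, 198 and 33.7 CPM in control replicates 1, 2 and 3. The guide libraries lay between control replicate 3 and the other controls, so the groups overlapped. The log2 fold change was -0.65 (SE 0.65, edgeR adjusted p = 0.995), and -1.13 (SE 0.34, adjusted p = 0.366) without control replicate 3. Monocytes also express Gngt2, and the 17 microglia and monocyte markers, all with counts, summed to 55.6 to 194 CPM in guide libraries and were highest, at 413 CPM, in control replicate 3, where Gngt2 was lowest. Of these markers Plac8 and Itgal were at 0 counts in 2 or more libraries, and the part of such cells in the level of Gngt2 was not tested.

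The rod gamma subunit Gngt1 (chromosome 6, 3989082 to 3997436) did not pass the test, and its groups overlapped. It was at 4671, 5047 and 2340 CPM with the Nr2e3 guide and at 4348, 3575 and 2245 CPM in control replicates 1, 2 and 3. Replicate 3 was the lowest library of each group. The log2 fold change was 0.32 (SE 0.38, edgeR adjusted p = 0.995), and 0.06 without control replicate 3. Its RefSeq promoter (GRCm38.p6, chr6:3993758-3994057, plus strand) is shown beside that of Gnat2 as the rod gene with the most motif matches found, marked in capitals as above.

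Gngt1: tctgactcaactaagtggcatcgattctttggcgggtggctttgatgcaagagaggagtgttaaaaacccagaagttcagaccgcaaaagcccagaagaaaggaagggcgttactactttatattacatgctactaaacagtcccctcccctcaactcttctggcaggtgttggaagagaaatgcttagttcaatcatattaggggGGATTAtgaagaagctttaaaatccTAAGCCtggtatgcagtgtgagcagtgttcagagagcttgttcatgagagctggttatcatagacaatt

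It held GGATTA, the minus-strand form of TAATCC, 44 bases before the start, and TAAGCC 19 bases before it, which did not overlap. The window of Gnb1, with 70.3% G and C against 48.7% in Gnat2 and 43.7% in Gngt1, held 1 TAAGCC, 107 bases before the start.

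Per kilobase of its longest RefSeq transcript, Gngt2 stood at 5.19, 3.89 and 4.42% of Gngt1 in guide and 9.53, 11.2 and 3.02% in control replicates 1, 2 and 3. The guide libraries again lay between control replicate 3 and the other controls. The log2 ratio differed by -0.62 (exact permutation p = 0.4, adjusted p = 0.667), and by -1.21 without control replicate 3. Per coding base the percentages were lower, 2.07 to 2.76 in guide and 1.61 to 5.95 in control libraries.

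The order of levels was compared per kilobase of transcript. Gnb1 (14097 to 16691 CPM per kilobase over the 6 libraries) and Gnat1 (12488 to 16138) were highest in every library, and Gnat1 exceeded Gnb1 only in control replicate 3. In control libraries Gngt1 came next at 2865 ± 899 CPM per kilobase, and then Gnb3 (837 ± 532), Gnat2 (376 ± 241) and Gngt2 (249 ± 166). Gnat2 overlapped both Gnb3 and Gngt2 there, while Gnb3, at 488 CPM per kilobase or more, lay above Gngt2, at 350 or less. In guide libraries Gnat2, at 3611 ± 368 CPM per kilobase, stood level with Gngt1 (3398 ± 1239) within their spread, above Gnb3 (1059 ± 87.2) and Gngt2 (153 ± 59.9). Per coding base Gngt1 remained above Gnat2 in all 6 libraries, so the place of Gnat2 beside Gngt1 depends on the length used. By that length Gnb1 also exceeded Gnat1 in control replicate 3. Gngt2, at 979 CPM per coding kilobase, then exceeded Gnb3, at 881, in control replicate 1, so these orders depend on the length too.

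The 3 cone genes did not keep a fixed proportion to each other. Per kilobase, the ratio of Gnat2 to Gnb3 was 4.00, 3.15 and 3.14 in guide and 1.08, 0.871 and 0.0676 in control replicates 1, 2 and 3. The groups did not overlap (difference in log2 ratio 3.09, exact permutation p = 0.1, adjusted p = 0.3), and the difference was 1.81 without control replicate 3, which had by far the lowest ratio. The ratio of Gnat2 to Gngt2 was steady among controls, at 1.51, 1.48 and 1.71, although both genes were lowest in control replicate 3. In guide libraries it was 19.3, 19.5 and 41.6. Those groups did not overlap either, with a difference of 4.00 in log2 ratio (exact permutation p = 0.1, adjusted p = 0.3). The ratio of Gngt2 to Gnb3 overlapped between groups, at 0.207, 0.162 and 0.0755 in guide and 0.718, 0.589 and 0.0396 in control libraries (difference -0.91, exact permutation p = 0.6, adjusted p = 0.692). Without control replicate 3 the difference was -2.26 and the groups did not overlap.

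Ratios among the rod genes overlapped between groups. Gnat1 to Gnb1 was 0.754, 0.773 and 0.942 in guide and 0.923, 0.943 and 1.14 in control libraries per kilobase, with replicate 3 highest in each group (difference in log2 ratio -0.29, exact permutation p = 0.2, adjusted p = 0.5). Gngt1 to Gnb1 was 0.237, 0.264 and 0.124 in guide and 0.235, 0.195 and 0.135 in control libraries, with replicate 3 lowest in each group (difference 0.11, exact permutation p = 0.7, adjusted p = 0.75). These differences were -0.19 and -0.12 without control replicate 3. The difference for Gnat1 to Gngt1 was -0.39 (exact permutation p = 0.5, adjusted p = 0.682), and it was -0.07 without control replicate 3 and -0.83 without guide replicate 3.

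Against other cone transcripts, the 3 cone subunits had different patterns. The reference was the summed count of the cone opsins Opn1sw and Opn1mw and the cone arrestin Arr3. It was at 2942, 1786 and 1705 CPM in guide replicates 1, 2 and 3 and at 4251, 5156 and 1041 CPM in control replicates 1, 2 and 3, so the reference itself was lower in the guide libraries than in control replicates 1 and 2. Gnat2 counts were 277, 371 and 438% of that sum in guide and 25.6, 19.9 and 19.3% in control replicates 1, 2 and 3. The controls lay close together here, control replicate 3 included. The difference was 4.05 in log2 ratio, or 16.6-fold (exact permutation p = 0.1, adjusted p = 0.3), against 9.87-fold for Gnat2 itself, and the groups did not overlap. This reference left out the cone markers Pde6c and Pde6h. Together they were at 3582, 3761 and 2352 CPM in guide and at 1052, 977 and 175 CPM in control replicates 1, 2 and 3. Unlike the reference, they were higher in the guide libraries than in all controls, so the size of the difference depends on the markers chosen.

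Gngt2 overlapped between groups relative to the cone sum, at 4.09, 5.45 and 3.01% in guide and 4.84, 3.85 and 3.23% in control libraries (difference in log2 ratio 0.05, exact permutation p = 0.9, adjusted p = 0.9). That difference was -0.09 without control replicate 3, and it too depends on the markers chosen for the sum. Gnb3 was at 62.2, 106 and 125% in guide and 21.2, 20.6 and 257% in control libraries. Its groups overlapped through control replicate 3 (difference 0.96, exact permutation p = 0.4, adjusted p = 0.667), without which the difference was 2.17.

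**Figure D3:**
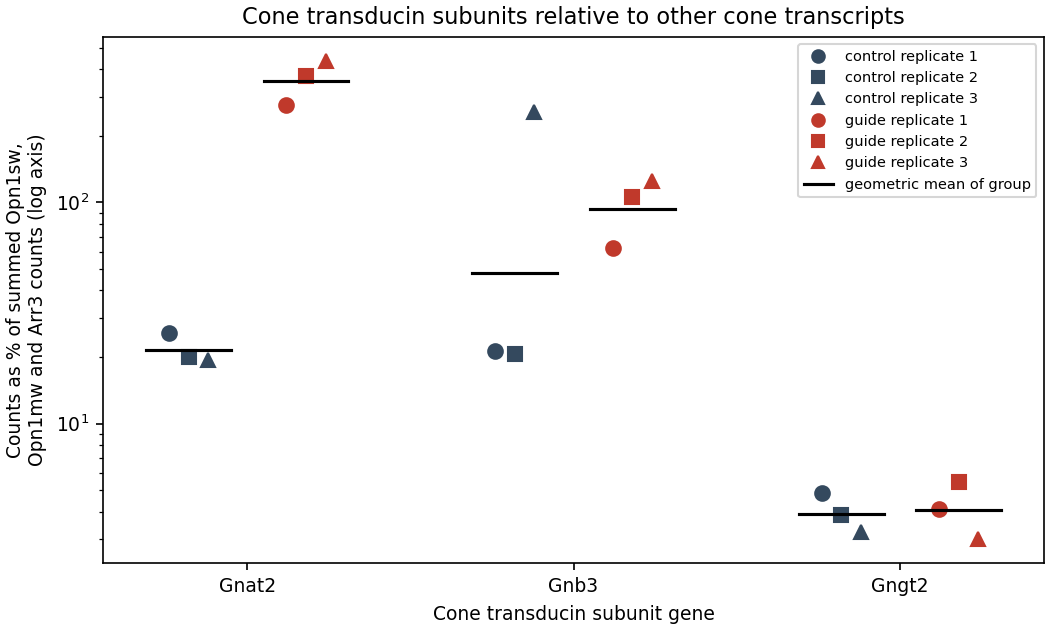
Counts of Gnat2, Gnb3 and Gngt2 as a percentage of the summed counts of Opn1sw, Opn1mw and Arr3 in the same library (log axis), with a bar at the geometric mean of each group. Gnat2 is at 277% or more in guide libraries and at 25.6% or less in controls, Gngt2 lies between 3.01 and 5.45% in all 6 libraries, and Gnb3 is highest in control replicate 3. The sum leaves out the cone markers Pde6c and Pde6h, which were higher in the guide libraries than in all controls.

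The other genes of the transducin cycle were read from lists of 59 genes, 56 of them tested. With edgeR 0 passed, and 8 lay under an unadjusted p of 0.05 (5.69% of all genes). DESeq2 called 2 higher and 1 lower (1.59% of all genes called) and limma-voom 2 higher (1.04%). The median log2 fold change was -0.07 over the 56 genes and -0.01 over all genes tested.

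Of the cone opsins, which activate cone transducin, 0 of 2 passed in any of the 3 tools and 0 lay under an unadjusted p of 0.05 in edgeR. The log2 fold change was -0.83 for Opn1sw (SE 0.66) and -0.66 for Opn1mw (SE 0.52), and edgeR gave adjusted p = 0.995 for each. Without control replicate 3 they were -1.32 (edgeR adjusted p = 0.259) and -1.08 (adjusted p = 0.276).

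Of the 5 subunits of the effector phosphodiesterase, 0 passed by edgeR and 2 had an unadjusted p under 0.05 (5.69% of all genes), both of cones, Pde6c and Pde6h. The cone catalytic subunit Pde6c was at 1125, 1047 and 907 CPM with the Nr2e3 guide and 205, 196 and 58.9 CPM in control replicates 1, 2 and 3. As with Gnat2, all guide libraries lay above all controls and control replicate 3 was lowest. Pde6c is described here because its profile was the nearest to Gnat2 over these same 6 libraries, so this likeness is no separate evidence. Its log2 fold change was 2.79 (SE 0.48, edgeR adjusted p = 0.0898), with adjusted p = 0.00303 without control replicate 3, and it was called by DESeq2 and limma-voom. For Pde6c, leaving out any 1 other library gave an edgeR adjusted p of 0.201 to 0.350, and sex as a term gave 0.380. The cone inhibitory subunit Pde6h had 1.97 (SE 0.69, adjusted p = 0.684). Pde6h was at 2457, 2713 and 1445 CPM with the Nr2e3 guide and 847, 780 and 116 CPM in control libraries, also without overlap. It had 1.48 without control replicate 3 (edgeR adjusted p = 0.162) and 1.74 without both replicate-3 libraries (adjusted p = 0.0156). The rod subunits Pde6b (0.21, SE 0.15) and Pde6g (0.14, SE 0.20) had adjusted p = 0.995, and Pde6g was at -0.02 without control replicate 3.

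The complex that ends the signal by speeding GTP hydrolysis on the alpha subunit had 0 of 3 members called in any of the 3 tools and 0 under an unadjusted p of 0.05. Rgs9, its catalytic part, had 0.03 in log2 fold change (SE 0.12), Rgs9bp, its membrane anchor, 0.09 (SE 0.22), and Gnb5, its beta-like subunit, -0.06 (SE 0.15). Each of these signs turned under at least 1 alternative setting.

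Of 16 chaperones and carriers of transducin, 0 passed by edgeR and 4 had an unadjusted p under 0.05 (5.69% of all genes). DESeq2 (1.59% of all genes called) and limma-voom (1.04%) each called 1, Gpsm2. Gpsm2, which binds alpha subunits in their GDP form, was at 809, 931 and 856 CPM with the Nr2e3 guide and 486, 548 and 623 CPM in control libraries, without overlap. Its log2 fold change was 0.73 (SE 0.13, edgeR adjusted p = 0.121, DESeq2 adjusted p = 0.00074). For Gpsm2, leaving out any 1 library gave an edgeR adjusted p of 0.110 to 0.629, and sex as a term gave 0.518. Pdc, phosducin, which binds the beta-gamma pair, was at 5398, 5988 and 4604 CPM with the Nr2e3 guide and 4188, 4084 and 3566 CPM in control libraries (0.51, SE 0.18, edgeR adjusted p = 0.716). Unc119, which carries the lipid-modified alpha subunit, had 0.09 (SE 0.13, adjusted p = 0.995). Of the 4 under an unadjusted p of 0.05, Pde6d was higher as well (0.67, SE 0.21, edgeR adjusted p = 0.543). Ric8b was lower (-0.43, SE 0.17, edgeR adjusted p = 0.786).

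Of 6 genes of lipid modification, 0 passed in any of the 3 tools and 1 lay under an unadjusted p of 0.05 (5.69% of all genes). Fntb, the beta subunit of farnesyltransferase, had -0.18 in log2 fold change (SE 0.16), Icmt, which methylates farnesylated proteins, -0.10 (SE 0.35) and Nmt1, a myristoyltransferase, -0.14 (SE 0.12). Icmt was at 0.34 without control replicate 3.

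The other G protein subunits were read in the same way. Of 12 other alpha genes tested, 0 passed in any of the 3 tools and 0 lay under an unadjusted p of 0.05, with Gnas at 68.2 ± 11.1 CPM with the Nr2e3 guide and 82.7 ± 11.7 CPM in control libraries, Gnaq at 66.6 ± 5.96 and 83.8 ± 8.41, and Gna11 at 47.7 ± 25.5 and 52.3 ± 31.8 (SD, n = 3). Of the beta genes Gnb2 and Gnb4, 0 passed in any tool and 0 lay under an unadjusted p of 0.05, with Gnb2 at 4.83 ± 1.88 and 8.39 ± 7.97 CPM and Gnb4 at 2.00 ± 1.08 and 2.74 ± 0.837 CPM. Of 9 other gamma genes tested, 0 passed by edgeR or limma-voom, 1 had an unadjusted p under 0.05, and DESeq2 called 1 lower, Gng7. Gng7, chosen after its values were seen, was at 2.93, 3.32 and 6.04 CPM with the Nr2e3 guide and 10.3, 15.5 and 19.8 CPM in the controls (log2 fold change -1.81, SE 0.34, edgeR adjusted p = 0.133). Gng3 (-0.50, SE 0.59), Gng11 (-0.09, SE 0.32) and Gng13 (-0.50, SE 0.44) had adjusted p of 0.995 or more by edgeR. They were at -0.93, -0.33 and -0.86 without control replicate 3.

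**Figure D4:**
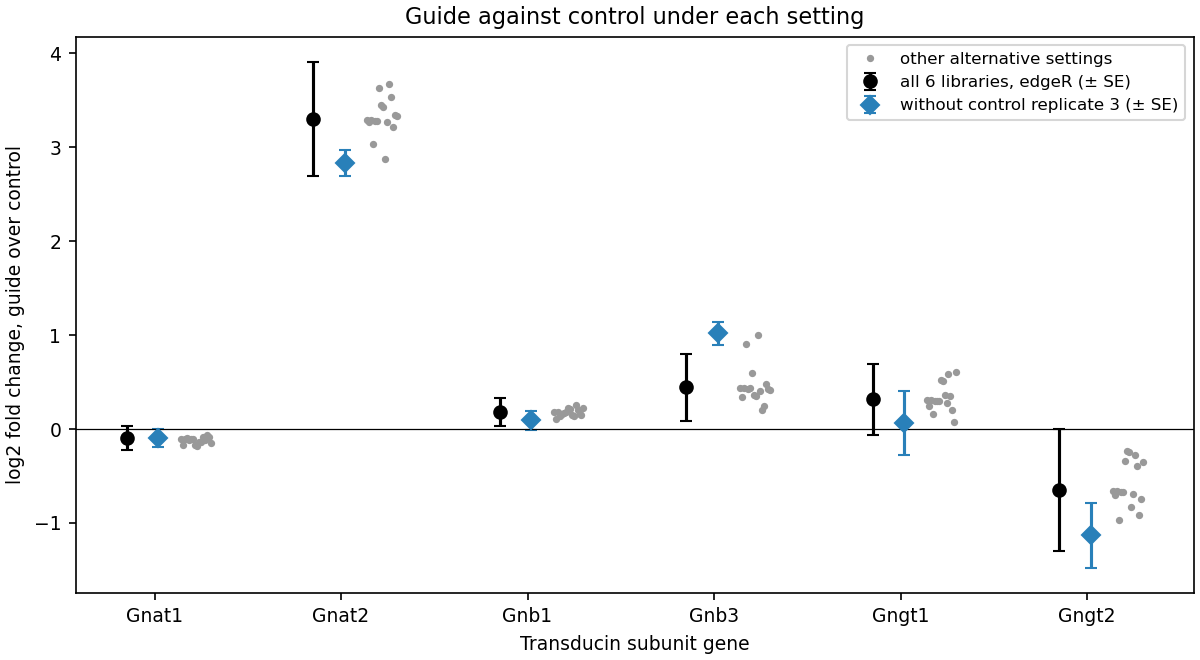
Log2 fold change of guide over control for the 6 transducin subunits, by edgeR on all 6 libraries (circles, ± SE), without control replicate 3 (diamonds, ± SE) and under the other 16 settings (dots). Each gene keeps its sign throughout, with Gnat2 between 2.83 and 3.68 and Gnb3 between 0.20 and 1.02.

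The genes nearest to each subunit in pattern were found among 8378 named autosomal genes of at least 5 CPM. The measure was the root mean square difference of log2(CPM + 0.5) over the 6 libraries, after each gene was centred on its mean. Nearest to Gnat2 were Pde6c (0.41), Clca1 (0.41) and Nav3 (0.51). Clca1 rose from 23.8, 28.0 and 9.80 CPM in control replicates 1, 2 and 3 to 192, 235 and 185 CPM in guide replicates 1, 2 and 3 (log2 fold change 3.37, SE 0.41, edgeR adjusted p = 0.0272). Its adjusted p was 0.0929 to 0.143 without any 1 of the guide libraries, 0.107 and 0.0951 without control replicate 1 or 2, and 0.250 with sex as a term. Clca1 was picked for its closeness to Gnat2 over these same 6 libraries, so its difference between groups is no separate evidence.

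Nearest to Gnb3 were Mapk11 (0.11), Skiv2l (0.11) and Spef2 (0.12), each highest in control replicate 3. Mapk11, a stress-activated kinase, was at 30.4, 28.4 and 38.7 CPM with the Nr2e3 guide and 14.7, 15.5 and 39.8 CPM in control libraries. Nearest to Gngt2 were Pgc (0.22), Cngb3 (0.23) and Slitrk6 (0.26). Cngb3, the beta subunit of the cone cation channel, was at 36.4, 32.0 and 18.7 CPM with the Nr2e3 guide and 71.9, 66.1 and 16.7 CPM in control libraries. Gnat2 and Gngt2 lay 2.03 apart by this measure, Gnat2 and Gnb3 2.01, and Gnb3 and Gngt2 1.48.

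**Figure D5:**
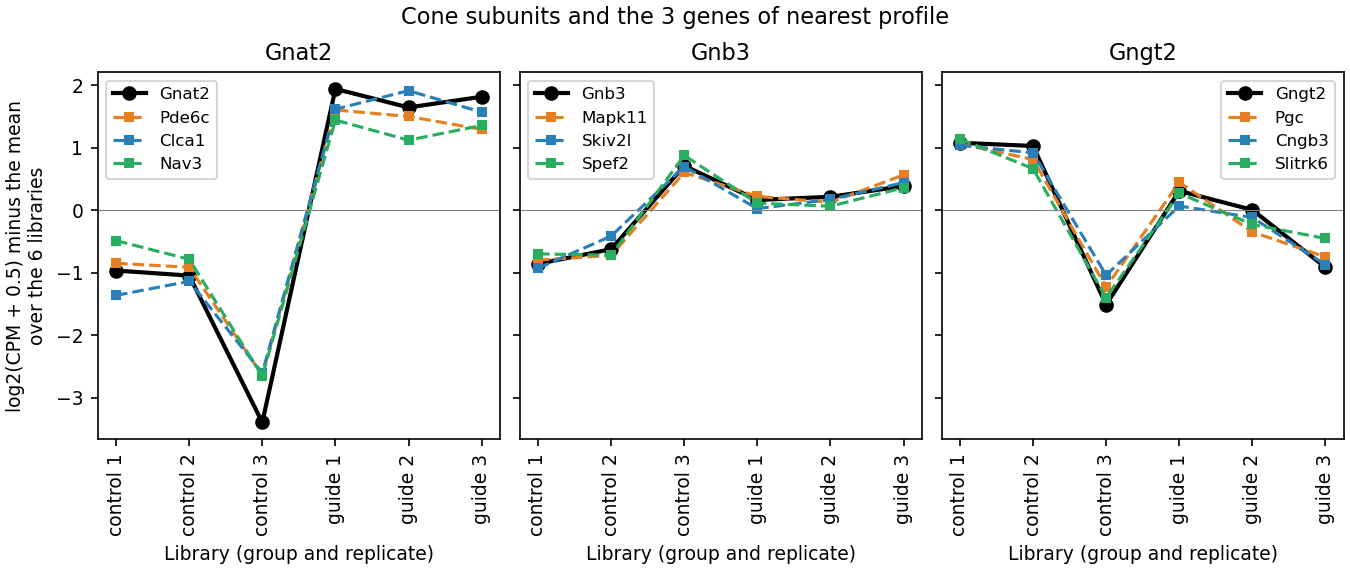
Log2(CPM + 0.5), centred on the mean over the 6 libraries, of Gnat2, Gnb3 and Gngt2 (black) and of the 3 genes nearest to each (coloured dashed lines), by library. Control replicate 3 is the lowest library in the Gnat2 and Gngt2 panels and the highest in the Gnb3 panel.

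The rod subunits had closer neighbours. Nearest to Gnat1 were Klhl20 (0.03), Parn (0.04) and Pmm2 (0.04), and nearest to Gnb1 were Timm17a (0.03), Ccdc17 (0.04) and Sugt1 (0.04), genes that likewise varied little. Nearest to Gngt1 were Atp5md (0.05), Ndufc1 (0.06) and Snrpe (0.06). Atp5md and Ndufc1 encode parts of the mitochondrial ATP synthase and complex I. Among the 50 genes nearest to Gngt1, 26 had names of ribosomal proteins or of respiratory chain subunits (52.0%), against 2.94% of all eligible genes and 0 of the 50 nearest to Gnat1 or Gnb1. Of these 50 nearest genes, 44 had a transcript length, with a median of 772 bases. The median was 3170 bases over all eligible genes, of which 97.6% had a length. The name families and the length were chosen after the values were seen. Between Gngt1 and the other rod subunits the distance was 0.42 for Gnb1 and 0.59 for Gnat1, while Gnat1 and Gnb1 lay 0.20 apart.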

How the data were processed

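Sorted photoreceptors of 6 animals were profiled after cDNA synthesis with a SMARTer Ultra Low kit, per the labels' protocols. The authors deposited raw counts of reads for each gene symbol in every library. For these counts the submitters' processing notes name GRCm38 (mm10), DESeq2 1.42.0, HTSeq 0.12.4, STAR 2.7.3a and cutadapt. Which annotation and strand setting were used is not given in the sources used here, so Gngt2 and its antisense neighbour cannot be told apart where they overlap. Entries that name no gene, 5 per library and 21.6 to 23.7% of counts, were dropped.

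CPM are counts per 1000000 gene counts. The 3 animals per group were compared with edgeR 4.0.16 (R 4.3.3, TMM, filterByExpr min.count 10, glmQLFit and glmQLFTest, adjusted p under 0.05), with DESeq2 1.42.0 and limma 3.58.1 as alternatives. SE is the log2 fold change over the square root of F. The code was tested on simulated data. Ratios used exact permutation tests (scipy 1.17.1), and the 15 were adjusted together. Kilobases refer to the longest GENCODE M21 transcript paired with a curated RefSeq entry, and spans and promoters are those of RefSeq, whose symbols matched all 49997 names.

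The genes, lists and alternatives were chosen with earlier results of these data known. Named genes are the 6 subunits, Nr2e3, the genes called and up to 3 others of highest CPM in each list, and the 3 nearest profiles of each subunit. Pde6c is named as a nearest profile, and Pde6d and Ric8b for their unadjusted p. 1 gene that this rule would name is not reported here. At this depth 3 counts are 0.0875 to 0.121 CPM, a limit that covers counting error only, since reads carry no molecular identifiers.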

Additional observations from a re-analysis of the deposited data

How the results depend on the processing

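Over 17 alternative fits the 6 subunits kept their direction. Gnat2 passed in 5 (log2 fold change 2.83 to 3.68), Gnb3 in 2 (0.20 to 1.02) and the other 4 in 0. Genes called, 54 higher and 5 lower in the guide libraries, became 201 and 70 with DESeq2, 160 and 19 with limma-voom, 130 and 25 with no count filter, and 39 and 3 scaled by library size only. Sex as a model term left 6 and 0, and a fit of males only, with 1 guide library, left 0 and 0. Leaving out 1 library gave 14 to 80 higher and 0 to 9 lower, with both upper ends without control replicate 3. The cause of these shifts was not tested. With the shared replicate numbers as a block, 31 genes were higher and 1 lower, and no subunit changed its call (Gnat2 3.63, adjusted p = 0.179). The deviations of same-numbered libraries correlated at 0.16, -0.14 and 0.11. Guide replicates 1 and 2 correlated best with controls of another number, replicate 1 only by 0.17 against 0.16. Guide replicate 3 correlated best with control replicate 3. Whether same-numbered libraries share more than the number was not tested.

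The sign of the log2 fold change turned for some genes, none of which passed the test. Gna11 was at 0.19 with limma-voom, 0.071 without both replicate-3 libraries and -0.45 to 0.46 leaving out 1 library. Gnb2 was at 0.063, 0.18 and -1.01 to 0.37, and Icmt at 0.23, 0.14 and -0.32 to 0.34, under the same settings in that order. Gng11 was at 0.077 with sex as a term, 0.064 in males and -0.33 to 0.10 leaving out 1 library. Rgs9 was at -0.043 by library size only, -0.0056 with sex as a term, -0.018 in males and -0.0040 with the 50 most abundant genes left out of library sizes. Leaving out 1 library gave -0.19 to 0.0019 for Gnb5, -0.016 to 0.27 for Pde6g and -0.061 to 0.28 for Rgs9bp. The log2 ratio difference then ran from -0.12 to 0.45 for Gngt1 to Gnb1, from -0.16 to 0.27 for Gngt2 to the cone sum, and from -0.17 to 0.071 for Gnat1 to a sum of rod marker counts. The cause of these turns was not tested.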
